A study of Apis mellifera with 24 samples.

Results

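The paternal and the maternal copies of 3485 genes were compared in the brains of 6 sister worker bees of lineage L875, of 3524 genes that both deposited allele tables list. A gene was included when the 6 sisters together had at least 40 reads assigned to a parental allele. The 39 genes below that minimum had 14 to 39 reads, and the lowest included genes, 3 in number, had 41. L875 is a Eur x Afr cross, written mother first, so that the queen was European (Eur) and the drone that fathered the workers was Africanized (Afr). It comprised 3 reproductive and 3 sterile bees of block A. The lineages set beside it each gave 3 reproductive and 3 sterile bees too. L888 was Afr x Eur and in block A, L882 was Eur x Afr and in block B, and L894 was Afr x Eur and in block B. All of the bees had lived in colonies that lacked a queen for about 18 days, and polyA RNA from single brains was sequenced. The series title places the work in the kinship theory of conflict within genomes.

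A drone is haploid and passes on his whole genome, so that daughters of a single drone carry identical paternal copies. A queen is diploid, and sisters can differ in which of her chromosome copies they inherit. Kinship theory holds that copies from the father and from the mother can differ in the expression that favours them, because they differ in relatedness to other members of the colony, and worker reproduction in queenless colonies is a trait on which they are held to differ. Within L875 the father's copy always comes from the Africanized parent and the mother's from the European parent. Below, the African copy is the one from the Africanized parent and the European copy the one from the European parent. The ancestry of single genes was not tested. The parent and the origin of a copy therefore cannot be told apart in this lineage alone, and p-values within it measure the spread between its sisters, not between families.

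The allele reads of the 3485 genes came to between 1664343 and 3296071 paternal reads and between 1536824 and 3161043 maternal reads per sister. The shallowest sister was Reproductive 1 and the deepest was Reproductive 2. A gene had a median of 1463 allele reads over the 6 sisters, and every gene had at least 1 read in every sister. Exactly equal paternal and maternal counts were more frequent than counting of separate reads gives. Among 13841 values of 1 gene in 1 sister with at least 100 reads, 8.69% had exactly equal paternal and maternal counts, where binomial counting at balance gives 2.09%. In 59 genes the counts were equal in all 6 sisters. GB52819, for example, had 20 to 89 paternal reads and the same 20 to 89 maternal reads in the sisters, equal within each bee. Whether reads that fit both alleles were counted on both sides was not tested. The counts do not behave as separate draws, so no counting interval is given for a share. The allele reads of a gene also exceeded its expected counts in the expression table in 62.1% of genes, and 355 genes had 0 expected counts in the 6 sisters. No identifier of the tables occurs in the reference table of named genes, so that genes are given by identifier and no function or sequence can be attached to them.

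Over all genes, the deposited counts of the 2 copies were close to balance. Any reads counted on both sides would bring a share nearer to 50%, and their part was not tested. The summed paternal share, the paternal percentage of a gene's allele reads over the 6 sisters, had a median of 50.4% and quartiles of 49.5% and 53.7%. It lay within 1 percentage point of balance in 37.0% of genes. More genes lay on the paternal than on the maternal side. Between 60 and 75% there were 304 genes and between 75 and 90% there were 63, against 110 between 25 and 40% and 30 between 10 and 25%. At the far ends the numbers were the same, with 12 genes above 90% and 12 genes below 10%. No gene lacked all reads of either parent, and 3 genes had under 5% maternal reads and 9 had under 5% paternal reads.

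Each sister showed nearly the same picture. The median paternal share over genes was 50%, 50.3% and 50.2% in the reproductive sisters and 50.1% in each of the 3 sterile sisters. It was above 50% in 5 of 6 sisters, with a mean of 50.14% ± 0.095 (SD, n = 6), and did not pass an exact two-sided sign-flip permutation test against balance (p = 0.0625, where 0.03125 is the smallest possible). With only the genes that had 20 reads in the sister, the mean was 50.18% ± 0.088 and 6 of 6 sisters were above 50% (exact p = 0.03125). The paternal part of all allele reads was 51.33% ± 0.38 and above 50% in 6 of 6 sisters (exact p = 0.03125). Reproductive and sterile sisters overlapped in both measures. For the median the means were 50.15% ± 0.15 in reproductive and 50.13% ± 0.020 in sterile sisters (exact two-sided permutation p = 0.7), and for all reads they were 51.45% ± 0.49 in reproductive and 51.2% ± 0.29 in sterile sisters (exact permutation p = 0.6, n = 3 each, where 0.1 is the smallest possible p).

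Gene by gene, 201 of the 3485 genes differed between the parental copies at an adjusted p of 0.05 in edgeR's quasi-likelihood test with the bee as a block, which is 5.77% of genes. The father's copy was higher in 128 of them (3.67%) and the mother's copy in 73 (2.09%). The genes higher from the father had a median paternal share of 62.2%, and 126 of the 128 were above 50% in all 6 sisters, as were 11.4% of all genes. Most of these differences were moderate: 54 lay between 50 and 60%, 49 between 60 and 75%, 18 between 75 and 90%, and 7 above 90%. The genes higher from the mother were fewer but reached further from balance. Their median paternal share was 35.3%, all 73 were below 50% in all 6 sisters, as were 4.68% of all genes, and 11 were below 10%. By log2 ratio of paternal to maternal reads, the first set had a median of 0.73 and the second of -0.88, beside 0.03 over all genes.

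**Figure D1:**
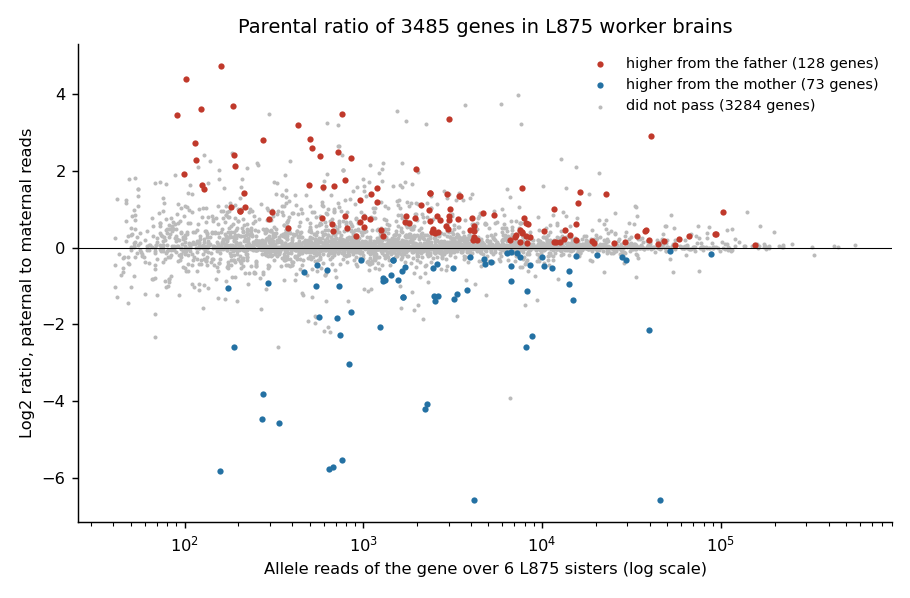
Log2 ratio of paternal to maternal reads (vertical axis) against the allele reads of the gene over the 6 L875 sisters (horizontal axis, log scale), 1 point per gene. The 128 genes higher from the father reach a log2 ratio of 4.73, and the 73 genes higher from the mother reach -6.58.

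The split between the parents depended on how the columns were scaled. The counts above take a log2 ratio of 0 as balance. With TMM factors the log2 ratio of all genes moved by a median of -0.085, and 115 genes were called higher from the father and 246 from the mother. With median-of-ratios factors it moved by -0.092, and the counts were 118 and 336. Each of these scalings kept 175 of the 201 genes with the same direction. Under TMM, 151 of the 246 maternal calls had a summed share between 45 and 55%, so that the added genes were mostly close to balance. Fewer genes passed without any 1 of the sisters: without Reproductive 1, 2 or 3 there were 123, 121 and 97, and without Sterile 1, 2 or 3 there were 118, 86 and 137.

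Among genes higher from the father, GB51729 had the largest difference. Its paternal reads ran from 10 to 42 with a median of 24.5, and its maternal reads from 0 to 2 with a median of 1, so that the 2 sets did not overlap. Its expected counts were 385 to 1387 per sister, far above these allele reads. Its share was 100%, 95.2% and 100% in the reproductive sisters and 90.9%, 93.3% and 97.7% in the sterile sisters. The paternal to maternal ratio was 4.73 on the log2 scale (SE 0.44, adjusted p = 0.00813). Allele counts as low as these leave the ratio imprecise, whereas GB56035, which had the smallest p, was deeply covered. GB56035 had 3442 to 8537 paternal reads (median 5841) and 440 to 1238 maternal reads (median 828.5). Its share lay between 86.9% and 90.1% in all 6 sisters, and the log2 ratio was 2.91 (SE 0.08, adjusted p = 0.000118). The expression table gives this gene 277 to 825 expected counts per sister, fewer than its allele reads.

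Other paternal genes showed how far sisters varied around one ratio. GB50294 had 50 to 90 paternal reads and 1 to 11 maternal reads, and its share ran from 84.7% in Sterile 2 to 98.4% in Sterile 3 (log2 ratio 3.20, SE 0.33, adjusted p = 0.00880). GB48603 had 56 to 180 paternal and 6 to 28 maternal reads, with a share of 85.0% ± 3.5 (SD, n = 6; log2 ratio 2.50, SE 0.15, adjusted p = 0.00217). In GB41319 the share was 80.2% ± 5.0 (SD, n = 6; log2 ratio 2.03, SE 0.18, adjusted p = 0.00657), although the expression table holds 0 counts for it in all 6 sisters. All of these genes were paternal in each sister, and none had paternal and maternal counts that overlapped.

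Among genes higher from the mother, GB49655 had the largest difference. Its paternal reads ran from 0 to 20 with a median of 5, against 318 to 1255 maternal reads with a median of 545. Its expected counts were only 2 to 28 per sister. The paternal share was 1.24%, 1.79% and 1.74% in the reproductive sisters and 0.755%, 0% and 0.476% in the sterile sisters, so that every reproductive value was above every sterile one. The log2 ratio was -6.58 (SE 0.40, adjusted p = 0.00217). The difference in ratio between the statuses did not pass for this gene (log2 difference 1.83, adjusted p = 1). GB52351 had the smallest p, with 1 to 4 paternal and 26 to 77 maternal reads, and a share between 1.82% and 7.14% (log2 ratio -4.56, SE 0.19, adjusted p = 0.000701).

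Few paternal reads were also found in other genes, among them a deeply covered one. GB49639 had 0 to 176 paternal reads, against 3560 to 13768 maternal reads, and a share of 1.33% ± 1.1 (SD, n = 6; log2 ratio -6.58, SE 0.79, adjusted p = 0.0120). Its expected counts were only 0 to 10 per sister. GB49183 had 0 to 7 paternal and 48 to 224 maternal reads (log2 ratio -5.53, SE 0.55, adjusted p = 0.00880). Its expected counts were only 1 to 7 per sister. Its share was 8.97% in Reproductive 1 and at most 2.90% in the other sisters. GB49146 had 0 paternal reads in 4 sisters and 1 in each of the other 2, against 5 to 47 maternal reads (log2 ratio -5.82, SE 0.45, adjusted p = 0.00383). Its expected counts were 1082 to 2595 per sister, far above its allele reads. In these genes, too, the paternal counts did not overlap the maternal counts.

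**Figure D2:**
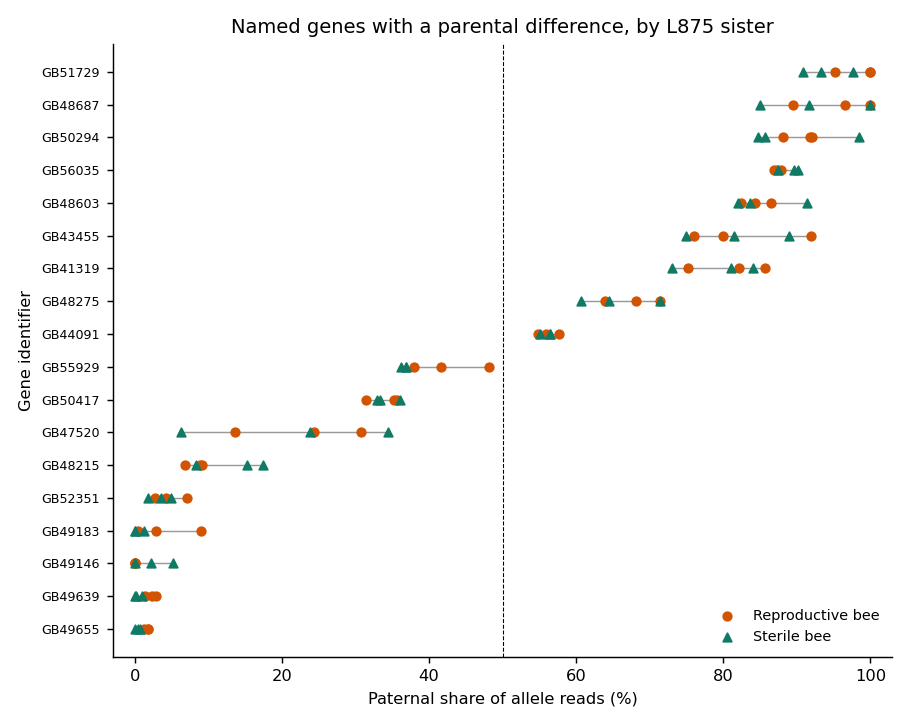
Paternal share of allele reads (horizontal axis, percent) of the 18 named genes that passed the parental test, 1 row per gene and 1 point per sister (circles reproductive, triangles sterile; lines span the 6 sisters). GB56035 stays within 86.9 to 90.1% and GB49655 within 0 to 1.79%, while GB47520 spans 6.25 to 34.4%.

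Reproductive status was the next question, because a difference in parental expression between reproductive and sterile workers is what kinship theory addresses. In edgeR, 0 of 3485 genes (0.00%) differed in parental ratio between the 3 reproductive and the 3 sterile sisters, with 143 at an unadjusted p under 0.05 and a smallest adjusted p of 0.363. limma on log2 ratios per bee called 0, with 173 at an unadjusted p under 0.05, and DESeq2 called 7. An unadjusted p under 0.05 is expected by chance in 174.2 of 3485 genes. Of 2802 genes with at least 20 reads in every sister, 137 (4.89%) had every reproductive share above every sterile share, and 162 (5.78%) had every reproductive share below. Complete separation of 3 from 3 sisters, in either direction, has an exact permutation p of 0.1. These shares are thus near what relabelling the sisters would give. Without Reproductive 1 edgeR called 6 genes, and without Sterile 2 it called 1, GB46342. GB56035, the paternal gene with the smallest p, had 87.9%, 87.3% and 86.9% in reproductive sisters and 87.5%, 90.1% and 89.6% in sterile sisters (log2 difference -0.24, adjusted p = 1). With the sisters of 1 status alone, its parental difference had an adjusted p of 0.0276 in the 3 reproductive and 0.0504 in the 3 sterile sisters in edgeR.

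The sisters of one status also served as a check on the other. With the 3 reproductive sisters alone, 6 genes passed (0.172%), 3 from the father (0.0861%) and 3 from the mother (0.0861%), and all 6 lay on the same side of balance in all 3 sterile sisters. With the 3 sterile sisters alone, 10 genes passed (0.287%), 9 from the father (0.258%) and 1 from the mother (0.0287%), and 7 of the 10 lay on the same side in all 3 reproductive sisters. Over all genes, 23.4% were above and 10.8% below 50% in all 3 sterile sisters, and 23.6% and 11.2% in all 3 reproductive sisters.

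Sisters differed widely in a small set of genes. Among the 2802 genes with 20 reads in every sister, the range of the paternal share over the 6 sisters had a median of 8.73 percentage points, and 966 genes had a range under 5 points. In 78 genes (2.78%) it exceeded 50 points. None of the 78 passed the test of a parental difference, which needs sisters that vary little around one ratio. In 31 of them a sister above 90% stood beside a sister between 40 and 60%, in 7 a sister below 10% stood beside one between 40 and 60%, and in 2 a sister above 90% stood beside one below 10%. Every reproductive sister was above every sterile sister in 4 of the 78 and below in 5.

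No single sister set these genes apart. Reproductive 1 had the highest share in 13 of the 78 and the lowest in 18, and Sterile 2 the highest in 16 and the lowest in 18. For the other sisters the numbers ran from 6 to 15 for the highest share and from 8 to 13 for the lowest. The SD among sisters had a median of 3.30 points over the 2802 genes, where binomial counting gives 2.79. It was more than 2 times the binomial value in 32.8% of genes and less than 0.5 times that value in 23.8%. The counts do not behave as separate draws, so the binomial value does not give the spread that chance alone would cause. How many genes would pass either cut by chance was not tested.

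The widest range was that of GB49856, whose paternal share was 100%, 56.4% and 29.4% in the reproductive sisters and 0%, 73.5% and 0% in the sterile sisters. The next was GB44471, at 89.7%, 80.4% and 53.8% in the reproductive sisters and 90%, 0% and 90.2% in the sterile sisters. Both genes had next to no expected counts in the expression table, 0 for GB49856 and 0 to 1 for GB44471. Over the 2802 genes, the shares of any 2 sisters were related with Pearson's r of 0.43 to 0.49 between reproductive sisters, 0.45 to 0.52 between sterile sisters and 0.44 to 0.53 across the statuses. These values describe genes that share a library and are given without a p.

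**Figure D3:**
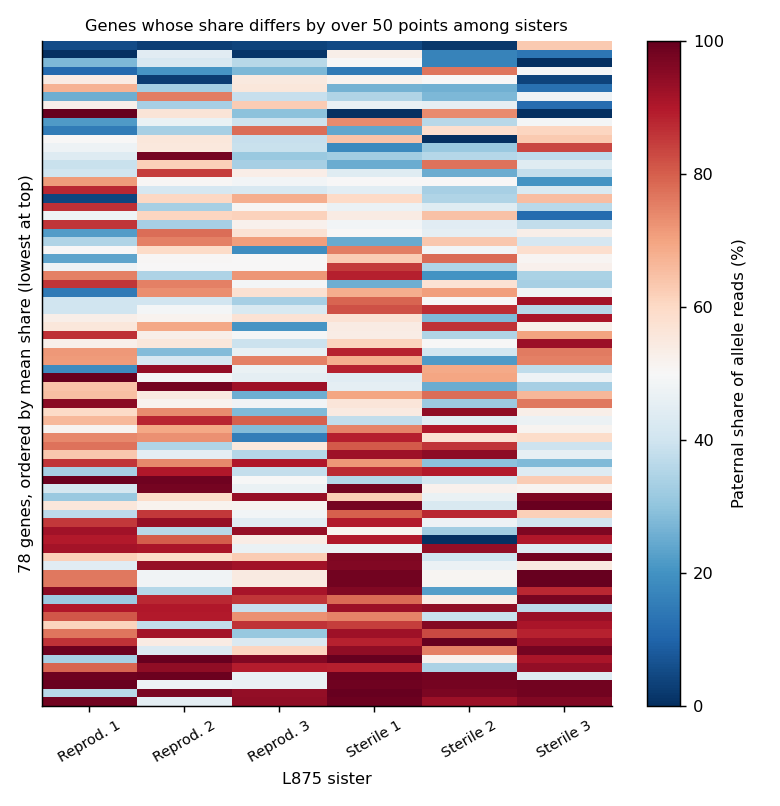
Paternal share of allele reads (colour, percent) of the 78 genes whose share differed by more than 50 points among the L875 sisters, 1 row per gene and 1 column per sister. High and low values are scattered over all 6 columns, and a row often holds values near 50% beside values above 90%.

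Compared with the other lineages, the L875 sisters stood closest to parental balance. Over 3469 genes with at least 40 reads in each of the 4 lineages, the median paternal share per bee averaged 50.15% ± 0.093 in L875, against 51.74% ± 1.0 in L888, 50.44% ± 0.15 in L882 and 51.54% ± 0.18 in L894 (SD, n = 6 each). L875 was lower by 1.59 points than L888, by 0.294 points than L882 and by 1.40 points than L894. The exact two-sided permutation p-values were 0.00216, 0.00433 and 0.00216, and adjusted over the 3 comparisons they were 0.00325, 0.00433 and 0.00325. L875 did not overlap L888 or L894, and overlapped L882 slightly. Since each value comes from a single family, differences between crosses and between families cannot be told apart. Whether reads counted on both sides have a part in these medians was not tested. L888 Sterile 2 stood apart at 53.8%, and without it L888 averaged 51.33% ± 0.22 (SD, n = 5; exact permutation p = 0.00216).

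L875 also had the fewest genes with a high paternal share. Over 2652 genes with 20 reads in all 24 bees, 10.9% ± 0.61 of genes were above 60% paternal in an L875 sister, against 22.7% ± 5.8 in L888, 15.3% ± 0.92 in L882 and 21.3% ± 1.2 in L894 (SD, n = 6 each). L875 overlapped none of them (exact permutation p = 0.00216 each, adjusted p = 0.00325 over 9 comparisons). Without L888 Sterile 2 the value of L888 was 20.4% ± 0.81. Below 40% paternal L875 had the highest mean instead, with 5.22% ± 0.61 of genes in L875 against 4.34% ± 0.42 in L882 (adjusted exact permutation p = 0.00731) and 4.25% ± 0.45 in L894 (0.00325). The 4.54% ± 1.2 of L888 did not differ from L875 in that test (0.262). The median reads of these genes in a bee were 274 to 560 in L875, 398 to 647 in L888, 366 to 580 in L882 and 290 to 792 in L894. The part of depth in these shares was not tested.

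**Figure D4:**
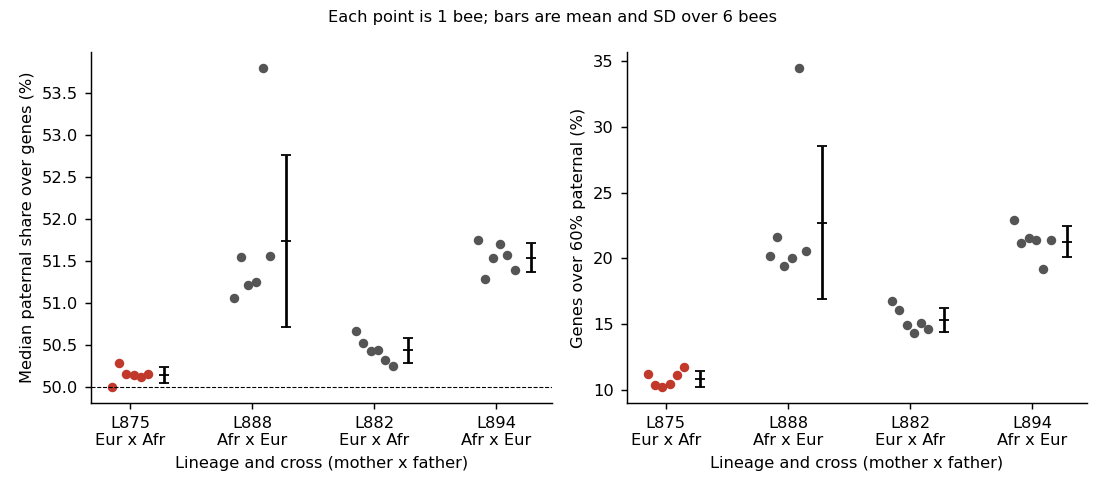
Median paternal share over genes (left, percent) and share of genes above 60% paternal (right, percent) in each of the 24 bees by lineage, with mean and SD over 6 bees; the vertical axes do not start at 0. L875 bees lie at 50 to 50.29% on the left and at 10.2 to 11.8% on the right, below every L888 and L894 bee in both.

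The parental ratio of single genes was then compared between L875 and each other lineage, with the difference in ratio as the test. L875 differed from L888 in 570 of 3479 genes (16.4%), with a higher ratio in 115 (3.31%) and a lower one in 455 (13.1%). It differed from L894 in 517 of 3478 genes (14.9%), higher in 101 (2.9%) and lower in 416 (12%). From L882, the other Eur x Afr lineage, it differed in 324 of 3482 genes (9.30%), higher in 132 (3.79%) and lower in 192 (5.51%). Without L888 Sterile 2, 609 genes differed from L888. The test of these counts against each other was not made.

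GB49146 differed most from all 3 lineages. The L875 sisters had 0 to 1 paternal and 5 to 47 maternal reads of this gene, beside 1082 to 2595 expected counts each. In L875 its paternal share ran from 0% to 5.26%, against 89.2 to 100% in L888, 92.3 to 100% in L882 and 85.0 to 100% in L894. The log2 differences were -11.25, -11.48 and -10.53 in that order (SE 0.96, 0.74 and 0.91; adjusted p = 2.92e-05, 4.76e-06 and 2.57e-05). It was thus maternal in L875 and paternal in the other families, L882 of the same cross included. GB50294 separated the Eur x Afr lineages in the opposite direction, at 84.7 to 98.4% in L875 against 3.77 to 10.8% in L882 (log2 difference 6.72, SE 0.41, adjusted p = 3.57e-06). GB48603 had 82.0 to 91.4% in L875 against 23.8 to 32.4% in L882 (log2 difference 3.83, SE 0.18, adjusted p = 2.83e-07).

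In several genes the other lineage was away from balance and L875 was close to it. GB42540 had a paternal share of 48.5 to 55% in L875, against 0 to 0.457% in L888 (log2 difference 9.33, SE 0.37, adjusted p = 3.73e-08). Its expected counts were 54 to 177 per L875 sister, fewer than its allele reads. In L894, of the same cross as L888, the share of that gene was 98.7 to 100%, so that the Afr x Eur families stood at opposite extremes. GB52819, with equal paternal and maternal counts in every L875 sister, had 87.9 to 92.0% in L888 (log2 difference -3.09, SE 0.11, adjusted p = 1.72e-08). Its counts were equal in every L894 bee too, and its share was at most 52.6% in L882. Whether such equal counts hold the same reads on both sides was not tested, so that the L875 value of GB52819 may not measure balance. GB48239 had 46.9 to 53.8% in L875 against 94.4 to 96.8% in L882 (log2 difference -4.48, SE 0.14, adjusted p = 1.31e-08). In contrast, GB56035 was away from balance in L875 at 86.9 to 90.1% against 49.4 to 52.2% in L888 (log2 difference 2.86, SE 0.08, adjusted p = 3.48e-09). GB41319 had 73.1 to 85.7% in L875 against 2.31 to 9.90% in L894 (log2 difference 5.97, SE 0.37, adjusted p = 2.95e-06).

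Fitted alone, L888 had 501 of 3507 genes with a parental difference (14.3%), 467 from the father (13.3%) and 34 from the mother (0.969%). Without L888 Sterile 2 the counts of L888 were 404 from the father and 58 from the mother. L882 had 323 of 3510 (9.2%), 242 (6.89%) and 81 (2.31%), and L894 had 524 of 3508 (14.9%), 479 (13.7%) and 45 (1.28%). In a reciprocal cross the parent and the origin of a copy are exchanged. The same direction in both lineages then has the same parent higher, and the opposite direction the same origin. Each lineage is a single family, so that a difference between families cannot be told apart from either. Of the 128 genes higher from the father in L875, 31 (24.2%, and 6.64% of the paternal calls of L888) were also called paternal in L888, where 13.4% of all genes were. Of the 73 genes higher from the mother in L875, 0 were called maternal in L888, where 0.949% of all genes were, and 23 (31.5%) were called paternal there. In the last group the European copy was the higher one in both families. It included GB49146, whose paternal share was 92.3 to 100% in L882, so that its African copy was higher there. Paternal genes of L875 that were called maternal in L888, with the African copy higher in both, numbered 4 (3.12%). Without L888 Sterile 2 the counts were 30 paternal in both, 4 maternal in both, 23 with the European and 5 with the African copy higher in both.

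L894 is the other Afr x Eur lineage. With L894, 34 genes (26.6% of the paternal genes of L875) were paternal in both, where 13.7% of all genes were paternal in L894. In 22 (30.1% of the maternal genes) the European copy was higher in both. The maternal genes shared with L894 numbered 12 (16.4%, background 1.27%). In 6 paternal genes of L875 (4.69%, background 1.27%) the African copy was higher in both. With L882, in which parent and origin are the same as in L875, 27 genes (21.1%, background 6.89%) were paternal in both and 21 (28.8%, background 2.30%) were maternal in both. The direction was opposite in 4 paternal genes of L875 (3.12%, background 2.30%) and in 10 maternal ones (13.7%, background 6.89%). The paternal genes of L875 had a median share of 55.3% in L888, 53.2% in L882 and 55.2% in L894, against 52.2%, 50.8% and 52.3% over all genes. The maternal genes had 58.7%, 49.4% and 57.1%.

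**Figure D5:**
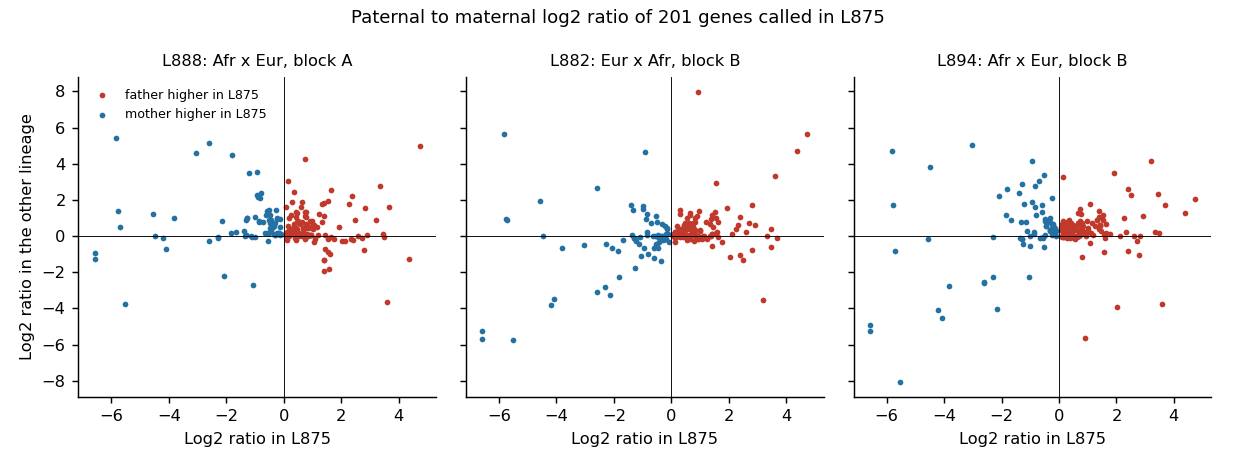
Log2 ratio of paternal to maternal reads in L875 (horizontal axis) against that in L888, L882 and L894 (vertical axes), 1 point per gene for the 201 genes called in L875. Genes higher from the mother in L875 lie mostly above 0 in the Afr x Eur lineages L888 and L894, with 23 and 22 of the 73 called paternal there.

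Examples stood for each class. GB43455 was paternal in L875 (share 75 to 91.9%) and in L888 (62.5 to 87.5%), with log2 ratios of 2.27 and 1.78 (adjusted p = 0.0120 and 0.0222). GB51729 was paternal in L875 (90.9 to 100%) and L882 (84.2 to 100%), and GB50294 in L875 and in L894 (87.5 to 100%). GB49639 was called maternal in L875, L882 and L894, with paternal shares of 0 to 2.89% in L875, 0.644 to 2.91% in L882 and 1.69 to 3.70% in L894. GB49183 was called maternal in the same 3 lineages, at 0 to 8.97% in L875, 0 to 5.44% in L882 and 0 to 1.81% in L894. Among the bees of L888 its share ran from 0.784 to 100%.

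GB48687 followed the African copy. Its paternal share was 85.0 to 100% in L875, against 2.08 to 17.7% in L888 and 0 to 14.8% in L894, and it was 86.7 to 96.4% in L882. The log2 differences from L888 and L894 were 7.24 and 7.34 (SE 0.68 and 0.62, adjusted p = 5.11e-05 and 2.19e-05). GB48215 followed the European copy, with 6.90 to 17.5% in L875 against 93.2 to 97.8% in L888 and 96.1 to 98.6% in L894, and a log2 difference of -8.09 from L894 (SE 0.32, adjusted p = 1.73e-07). In L882 its share was 34.7 to 47.6%, nearer to balance than in L875 (log2 difference -2.53, SE 0.24, adjusted p = 9.97e-05).

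Few genes were called in all 4 lineages in one pattern, and the following were chosen after their values were seen. GB44091 and GB48275 were paternal in all 4, and no gene was maternal in all 4. GB44091 had 5418 to 11824 paternal and 4275 to 9736 maternal reads in the L875 sisters and a share of 54.8 to 57.7% (log2 ratio 0.35, SE 0.02, adjusted p = 0.00291). GB48275 had a share of 60.6 to 71.4% in L875 (log2 ratio 1.01, SE 0.11, adjusted p = 0.0103), against 54.2 to 58.1% in L888, 52.7 to 58.3% in L882 and 55.2 to 60.4% in L894. Its ratio in L875 was higher than in each of them (log2 differences 0.61, 0.69 and 0.57; adjusted p = 0.00508, 0.00583 and 0.00939).

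The European copy was called higher in all 4 lineages in GB48215, GB47520, GB50417 and GB55929, and the African copy in GB48687. GB50417 had a share of 34.1% ± 1.8 in L875 (SD, n = 6; 31.5 to 36.0%), against 77.0 to 86.5% in L888 and 72.2 to 86.9% in L894, and 36.0 to 46.2% in L882. Its expected counts were only 0 to 1 per L875 sister, although it had 261 to 1420 paternal reads. GB47520 varied more, from 6.25 to 34.4% in L875 (adjusted p = 0.0474), and its L875 call was lost whichever sister was left out and in limma (adjusted p = 0.0544). GB55929 (36.2 to 48.2%, adjusted p = 0.0340) remained called without 1 of the 6 sisters and was lost without each of the other 5, and its call in L888 was marginal (adjusted p = 0.0499).

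The total level of these genes was read from the expression table, which the allele comparison did not use. L875 and L888 differed in 5 of 9759 genes tested (0.0512%), 1 higher (0.0102%) and 4 lower (0.041%) in L875, with 824 at an unadjusted p under 0.05, and 0 of the 2837 allele genes tested there were among the 5. DESeq2 called 43. Of the genes higher from the father in L875, 111 could be tested and 0 differed in total level, with 7 at an unadjusted p under 0.05 and a median log2 difference of 0.11 between L875 and L888. Of the genes higher from the mother, 63 could be tested and 0 differed, with 2 at an unadjusted p under 0.05 and a median of 0.07. Over the 2837 allele genes tested the median was 0.08, close to both sets, with 232 at an unadjusted p under 0.05. Over all 9759 genes the median was -0.01.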

How the data were processed

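PolyA RNA of single worker brains was measured. Allele read counts per gene were deposited by the authors for the drone (paternal) and queen (maternal) allele of each bee, per the file headers; expected counts per gene were deposited in a second kind of table and were rounded. Per the submitters' processing notes HISAT2 and limma were used. For the allele assignment rule, the genome build and the annotation, no source used here gives a statement. Repeated identifiers (3 and 1, identical) were reduced to 1 entry each.

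edgeR 4.0.16 in R 4.3.3 was fitted by quasi-likelihood with a paternal and a maternal column per bee, the bee's allele reads as library size for both, and the bee as a block, since the 2 columns are 1 animal. Differences by status and lineage were interaction terms. SE was the absolute log2 value divided by the square root of F. p-values were Benjamini-Hochberg adjusted over all genes of a fit (threshold 0.05). limma 3.58.1 (prior count 0.5) and DESeq2 1.42.0 were alternatives. Total expression used TMM factors and filterByExpr. The fits were tested on simulated data in which paternal and maternal counts were drawn separately. That test does not cover the excess of equal counts described above.

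The genes, comparisons and naming rule were chosen with earlier results of these data known. Named genes had at least 100 reads and the same direction in all bees concerned: per comparison and direction the largest difference and the smallest p, and per shared class the largest smaller log2 ratio. The 2 genes with the widest range among sisters were named without regard to direction. Replicates were numbered within a group in accession order. Column headers mark status by letter, and for L888 the letters run opposite to the labelled status, unlike the other lineages; both statuses of L888 were pooled here. The marker and gene lists could not be used, because 0 identifiers matched the reference table.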

Additional observations from a re-analysis of the deposited data

Results flagged for a closer look

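In GB49183 one sister stood apart from the other 5: the gap between the paternal share of 8.97% in L875 Reproductive 1 and the next highest, 2.90%, was 0.677 of the whole range, above Dixon's 95% critical value for 6 values. Chance gives about 1 such case in 20, and 26 sets of 6 sisters were examined, of which 1 stood out.

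The genes named for a difference in parental ratio between L875 and another lineage were picked from the genes called by the test of that difference. Their passing it was therefore fixed by the choice. Against L888 the log2 differences were 9.33 in GB42540, 2.86 in GB56035, -11.25 in GB49146 and -3.09 in GB52819. Against L882 they were 6.72 in GB50294, 3.83 in GB48603, -11.48 in GB49146 and -4.48 in GB48239. Against L894 they were 7.34 in GB48687, 5.97 in GB41319, -10.53 in GB49146 and -8.09 in GB48215. Whether family or cross accounts for them was not tested.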

How the results depend on the processing

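Of the counts in L875, the 201 parental calls (128 from the father, 73 from the mother) moved most. They were 381 with DESeq2 (282 from the father), 361 with TMM factors and 454 with median-of-ratios factors (246 and 336 from the mother), and 310 with all 24 bees in 1 fit (244 from the father). They were 1361 in the exact binomial test on summed reads (976 and 385), which leaves out the spread between sisters. Fewer were called with no replicate block (56; 33 and 23), which ignores that both columns are the same bee, with 60% of reads from 1 parent required (120; 74 and 46), and, with fewer samples, in 3 reproductive (6; 3 and 3) or 3 sterile sisters alone (10; 9 and 1). Leaving out single sisters gave 86 to 137 calls, 45 to 87 from the father and 41 to 54 from the mother. For status, DESeq2 called 7 genes and leaving out single sisters gave 0 to 6. The paternal share per bee passed the exact test as the share of all reads (51.33%, p = 0.03125) and over genes with 20 reads (50.18%, p = 0.03125), and leaving out single sisters gave 50.11 to 50.17%. With 50 reads per sister, 1.74% of genes had a range above 50 points. DESeq2 called 43 genes for total expression.

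With shares past 60% or under 40% in both lineages in place of the test, genes paternal in both numbered 141 with L888, 134 with L882 and 146 with L894, and maternal in both 22, 38 and 26. Paternal in L875 and maternal in the other numbered 38, 27 and 24, and the opposite 72, 43 and 68. Without L888 Sterile 2, an alternative chosen after seeing the data, 4 genes were maternal in both L875 and L888. The counts of genes that differed between L875 and each lineage stayed within 1.5 times under every alternative run. Of the parental results of single named genes, 16 lost their call in the 3 reproductive sisters alone and 17 in the 3 sterile sisters alone, in the same direction. No named gene reversed its direction where it had been called. Except where a reason stands beside a value, the cause was not tested.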

Other observations

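GB46342 was chosen after its values were seen. Its paternal share was 49.7%, 49.6% and 49.9% in the reproductive L875 sisters, and 73.6%, 64.9% and 74.5% in the sterile sisters, so that the statuses did not overlap. Its expected counts were 171 to 349 per L875 sister, fewer than its allele reads. The log2 difference in ratio, reproductive minus sterile, was -1.32 with an adjusted p of 0.422 in edgeR with all 6 sisters, and -1.53 with an adjusted p of 0.00595 without Sterile 2. The bees of L894 ranged from 36.9 to 75.7% in this gene, and those of L888 from 47.5 to 50.6%.

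Further genes were singled out after their values were seen. GB56035, which varied by little among the L875 sisters (86.9 to 90.1%), ranged from 46.3 to 81.8% among the bees of L882 and from 45.8 to 91.5% among those of L894. GB49655 and GB49639, nearly without paternal reads in L875, ranged from 1.64 to 96.9% and from 1.33 to 98.9% among the bees of L888. Like GB49639, GB49655 was also called maternal in L882 (0.194 to 8.17%) and L894 (1.86 to 5.81%).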
